A study of Mus musculus with 454 samples.

Results

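The genes described here are the axon guidance ligands and receptors of mouse vagal sensory neurons. They were chosen by symbol alone: every semaphorin of classes 3 to 7, plexin, neuropilin, ephrin, Eph receptor, slit, robo and netrin, and the netrin receptors Dcc and Unc5a to Unc5d. The rule found 69 of 36920 genes in the table of picked neurons and 68 of 28001 genes in the droplet library, where Ntn3 had no entry. Symbols that only share a prefix, such as Ntng1, Slitrk1 and the antisense gene Plxna4os1, were not counted as members.

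The study measured RNA of single cells of the nodose ganglion, which holds cell bodies of vagal sensory neurons. All mice were wild type C57BL/6, and the ganglia were dissociated with papain, collagenase and dispase. One 10x Genomics droplet library came from mice aged 6 weeks, and neurons picked singly and amplified by Smart-seq2 came from mice aged 8 to 12 weeks. The mouse and the target code of a picked cell come from header lines of the authors' table: 5 mice with code GastG, 3 with GastP, 4 with IntP, 3 with IntM, 3 with IntD, 3 with IntL and 8 with Port entered the tests. What the codes stand for is not spelled out in the labels, so they are used as written. GastG and GastP together are called Gast below (8 mice, with 60 and 45 cells), and the 4 codes that begin with Int are called Int (13 mice, with 45 cells in IntP, 45 in IntM, 35 in IntD and 44 in IntL). No other difference between these groups is given. Nothing in the labels says how a cell was labelled before picking or how many mice gave the droplet library.

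Guidance molecules steer growing axons by attraction and repulsion, and many of them stay on in the adult nervous system, where they act on synapses, on the response to injury and on contacts with glia and vessels. Semaphorins signal through plexins, and most secreted class 3 semaphorins need a neuropilin as the binding partner. Ephrins are tied to the membrane and bind Eph receptors on a touching cell, slits bind robo receptors, and netrins bind Dcc and the Unc5 receptors.

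Promoter sequences are shown for Epha5, Nrp2 and Efna5, the members with the largest rise and the largest fall between Gast and Int neurons and an ephrin that binds Epha5. Each is the 250 bases before the annotated start, from RefSeq on build GRCm38.p6, written 5′ to 3′ on the strand of the gene. The gene positions given below come from GENCODE, where Nrp2 begins at 62703285. The last bases of its window, with its last GC box, thus lie inside the gene by that annotation. Capitals mark the GC box, GGGCGG, on either strand (CCGCCC when read on the other strand), and in Nrp2 one pair of matches overlaps.
Epha5, chr5:84417383-84417632, minus strand: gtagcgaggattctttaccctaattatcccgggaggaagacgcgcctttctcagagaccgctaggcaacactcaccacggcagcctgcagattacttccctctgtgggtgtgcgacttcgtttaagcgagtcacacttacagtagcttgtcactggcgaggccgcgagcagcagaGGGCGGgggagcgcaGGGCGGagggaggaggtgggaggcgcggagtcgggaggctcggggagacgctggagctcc
Nrp2, chr1:62703067-62703316, plus strand: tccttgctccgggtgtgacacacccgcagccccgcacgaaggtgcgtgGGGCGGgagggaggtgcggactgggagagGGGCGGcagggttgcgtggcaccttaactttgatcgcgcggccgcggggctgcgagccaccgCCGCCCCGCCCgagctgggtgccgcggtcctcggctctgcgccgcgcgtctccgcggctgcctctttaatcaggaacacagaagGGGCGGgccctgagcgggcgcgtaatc
Efna5, chr17:62881318-62881567, minus strand: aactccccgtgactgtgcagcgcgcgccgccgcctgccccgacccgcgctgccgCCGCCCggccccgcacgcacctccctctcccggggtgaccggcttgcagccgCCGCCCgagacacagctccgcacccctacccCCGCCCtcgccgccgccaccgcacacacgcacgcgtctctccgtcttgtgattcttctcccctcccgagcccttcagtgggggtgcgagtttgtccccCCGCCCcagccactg
The windows are rich in G and C, at 62.4% for Epha5, 72.4% for Nrp2 and 74.8% for Efna5, with 20, 32 and 32 CpG pairs. They hold 2, 5 and 4 GC boxes. None holds the letters TATAAA or the letters TGTGGTT of the RUNX core on either strand. Of 75 promoters of 59 members, 53 hold a GC box (70.7%), against 32.7% of 32851 promoters in the table, and their median GC content is 64.4% against 52.4%. TATAAA was found in 2 of the 75 (2.67%, against 12.4% of all) and TGTGGTT in 1 (1.33%, against 4.40%). These counts describe letters in a window and say nothing about binding.

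In the droplet library, the neurons carried many of the ligands and receptors, with few UMIs of netrins and, apart from Slit2, of slits. There, 1087 of 1108 filtered cells were neurons, at a median of 56119 UMIs (molecules counted by their 3′ end, so that no scaling by length applies). Levels are counts per 1e+06 UMIs (CPM), summed over neurons, with exact 95% Poisson intervals. With 1 library there is no test, and the intervals describe counting error alone. Of the 68 members, 59 had 20 or more UMIs. At least 20% of neurons held a UMI of 36 members, and at least 70% held one of 13 members. The 36 were 13 of 20 semaphorins, 5 of 8 ephrins, 1 of 3 slits and 0 of 3 netrins among the ligands, and 7 of 9 plexins, both neuropilins, 3 of 14 Eph receptors, 2 of 4 robos and 3 of 5 netrin receptors.

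Among receptors, Nrp2, a co-receptor for class 3 semaphorins, was the most abundant at 178.6 CPM (175.4 to 181.8), with a UMI in 73.1% of neurons. Nrp1 was at 42.6 CPM. The netrin receptors Unc5c, Unc5d and Unc5b were at 88.7, 72.3 and 51.2 CPM. Among the other receptors, Epha5, which binds the A class of ephrins, stood at 113.8 CPM (111.3 to 116.4), the slit receptor Robo2 at 87.4, and the semaphorin receptors Plxna4 and Plxna2 at 80.9 and 42.3.

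Among ligands, the transmembrane semaphorin Sema5a was at 148.02 CPM (145.1 to 150.9) and Sema4f at 114.3, and the ephrin Efna5 at 100.1. The secreted Sema3c was at 84.3 CPM, and the transmembrane Sema6d and Sema4d at 62.2 and 58.2. Netrins were scarce. Of the slits, Slit2 was at 19.6 CPM (a UMI in 30.5% of neurons), Slit3 at 4.78 and Slit1 at 2.02. The 3 netrins with an entry came to 0.960 CPM in sum and the 3 slits to 26.4, beside 580 for the 20 semaphorins, 221.2 for the neuropilins and 215.1 for the netrin receptors. Ntn1, the best known netrin, had 2 UMIs among 67714181 in neurons, and Dcc, the attractive netrin receptor, had 3.

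Other members were close to absent from neurons. Epha1 and Sema5b had 3 UMIs each, Epha8 had 7, Ntn5 had 8, Efna4 had 9 and Epha2 had 11. All 4 UMIs of Robo3, a robo receptor best known from axons that cross the midline, lay in the 47 jugular-like neurons. Counts this low do not show that a gene is absent.

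Several members were marks of other cells of the ganglion. Barcodes of at least 1000 UMIs in the unfiltered matrix (2435 clustered) were grouped into neurons (47.8%), satellite glia (19.4%), Schwann cells (6.37%), endothelial cells (5.13%), mural cells (2.38%), fibroblasts and immune cells (20 of each), and 17.3% were left unnamed. The secreted Sema3b was at 586 CPM in Schwann cells and 275.2 in satellite glia, against 10.5 in neurons. Nrp1, also a receptor for VEGF, reached 731 CPM in endothelial cells and 425.1 in mural cells, against 41.02 in neurons. Endothelial cells also held Sema7a at 288.9 CPM, the endothelial robo receptor Robo4 at 175.3, Epha4 at 134.1 and Plxnd1, a receptor for Sema3e, at 96.9. Ntn1 was found in fibroblasts at 97.5 CPM and Ntn4, a netrin of basement membranes, in mural cells at 60.7. Both netrins were thus at their highest outside the neurons. Unc5c (88.01 CPM), Unc5d (72.3), Plxna4 (80.01) and Sema4f (113.4) were abundant in neurons, and Sema4f was at or below 8.12 in the other named classes, with 201.8 among the unnamed barcodes.

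**Figure D1:**
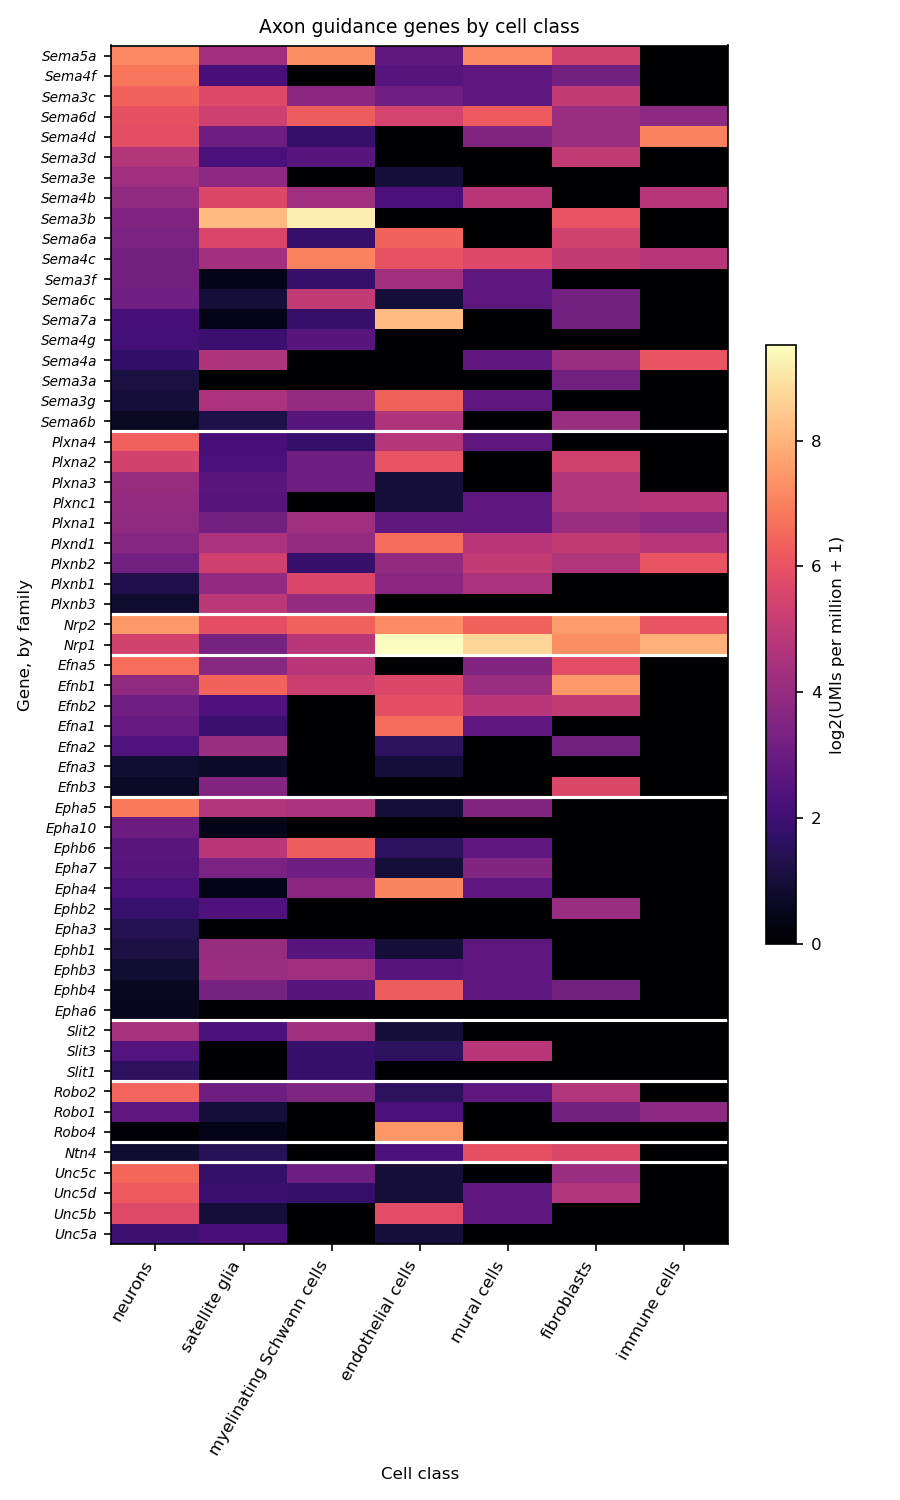
Levels of the members with at least 20 UMIs in neurons, as log2(CPM + 1) by colour, by cell class in barcodes of at least 1000 UMIs of the droplet library. On the CPM scale Nrp1 stands highest in endothelial cells (731) and Sema3b in Schwann cells (586), while Unc5c, Unc5d and Plxna4 are abundant in neurons.

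RNA of these cells also moved with some neuronal values. Of the 1087 filtered neurons, 37.1% had 1000 CPM or more of markers of other cells. Robo4 was 21.9 times as high in those neurons as in the others, Ephb3 11.04 times, Sema3g 10.1 times, Plxnb3 9.71 times and Ephb4 6.84 times. In all, 15 of 68 members differed so by more than 2-fold, with no minimum of UMIs set and no share over all genes given. Some of the 15 rest on few UMIs in neurons, such as Epha1 (3), Ntn5 (8), Efna4 (9) and Epha2 (11). Cluster 2, whose leading genes are the endothelial Cldn5 and Ly6c1, held 70.8% of the UMIs of Robo4, and endothelial markers summed to 394.8 CPM there.

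Neurons fell into 27 clusters, made without the members among the variable genes, and members were spread unevenly over them. Epha5 ran from 3.32 CPM in its lowest cluster to 713 in cluster 19 (with Prlr among its leading genes), with 541 in cluster 26 (Gata3). Nrp2 reached 1078 CPM in cluster 23 (Col27a1), where satellite glia markers summed to 6095 CPM, and 758 in cluster 13 (Igf1 and Tgm2). Cluster 6 (Rbp4), with few such markers at 228.4 CPM, held 19.03% of its UMIs. The netrin receptor Unc5b had its highest level in cluster 15 (Vip), and 30.2% of its UMIs lay in cluster 0 (Uts2b and Cckar).

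Ligands parted in the same way. Sema3e was highest by share in cluster 0 (34.1% of UMIs, 78.8 CPM). Slit2 reached 170.2 CPM in cluster 13. Cluster 21, with Slc17a7 among its leading genes, held Plxna2 at 378.5 CPM, Sema3f at 67.04, Epha4 at 41.6 and Sema7a at 68.7, with 31.9% of the UMIs of Sema7a. For 15 members the highest level lay in the shallowest cluster, number 22, of 20 cells at a median of 19030.5 UMIs. Among them were Sema5a at 1041 CPM and Robo2 at 484.

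**Figure D2:**
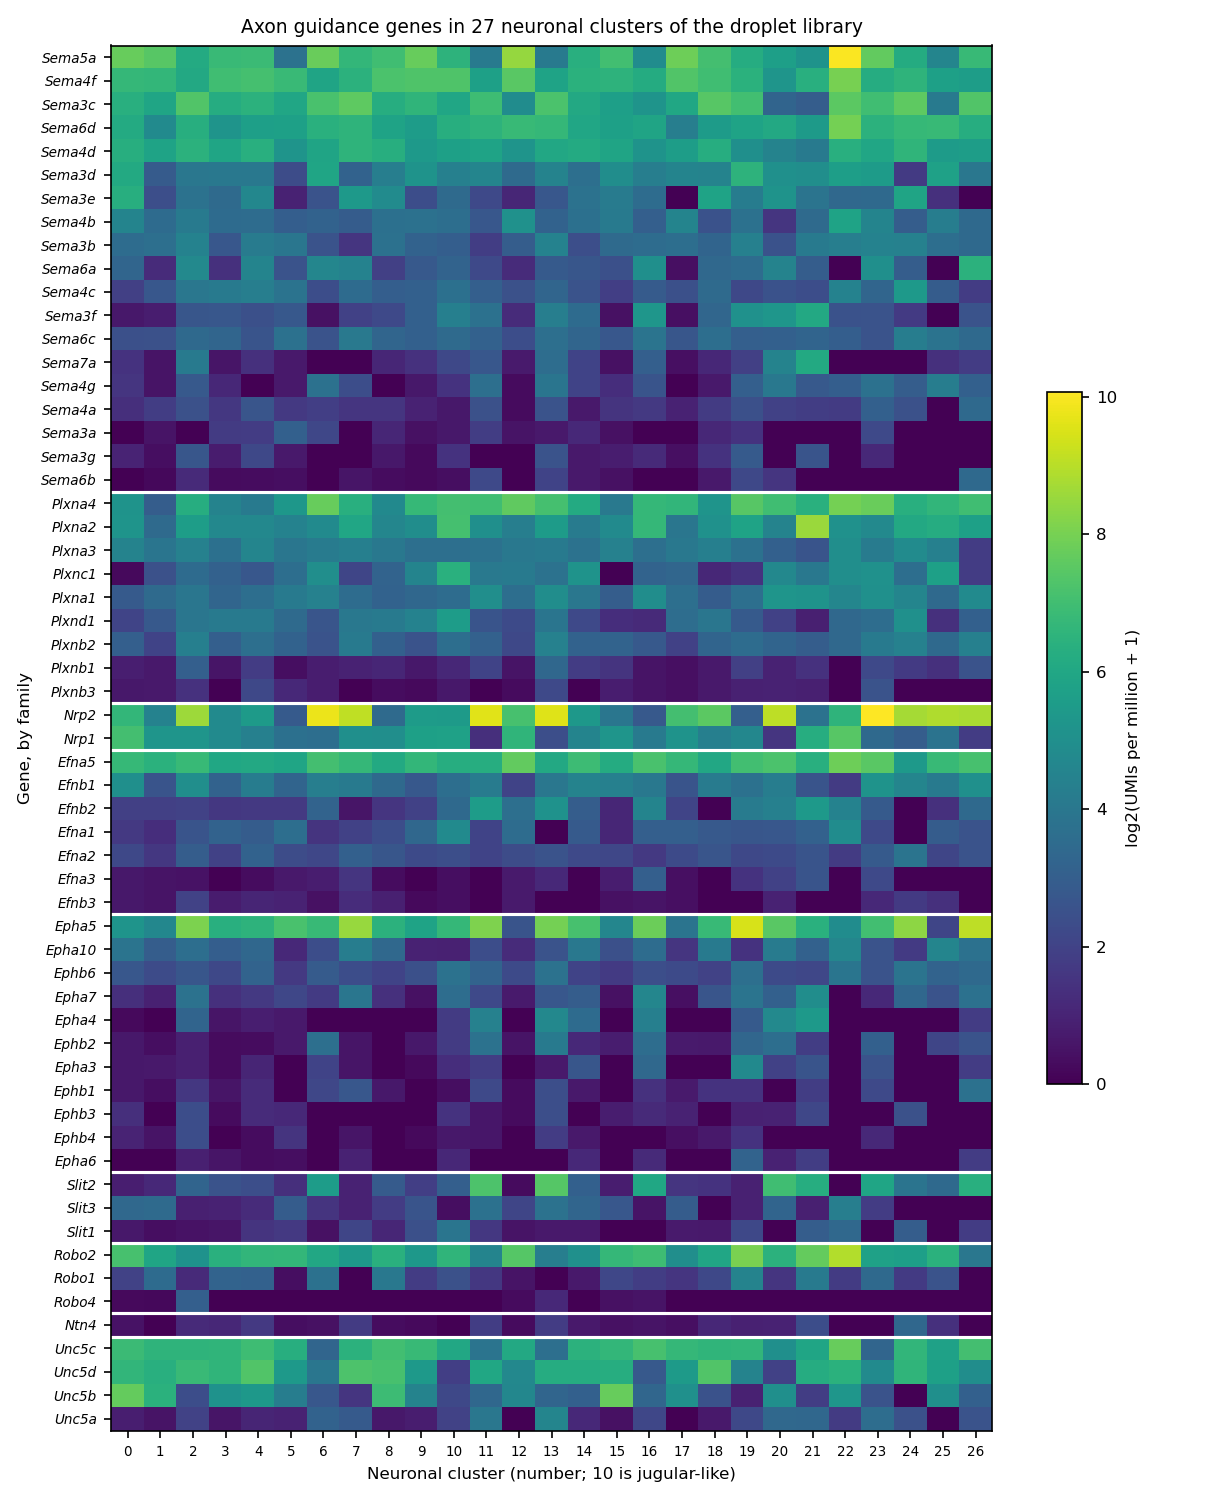
Level of the 59 members with at least 20 UMIs (rows of the plot, by family) in the 27 neuronal clusters of the droplet library (columns), as log2(CPM + 1) by colour. Epha5 is highest in cluster 19 (713 CPM) and Nrp2 in cluster 23 (1078 CPM), and Plxna2 stands out in cluster 21.

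Ligands and receptors did not share a common pattern over the clusters. Of 22 pairs of a ligand and a receptor or of receptors that act together, Spearman's rho over the 27 clusters was highest for Efnb2 and Ephb2 (0.609) and for Sema6d and Plxna4 (0.604). It was lowest for Slit2 and Robo2 (-0.477) and for Sema5a and Plxna1 (-0.409). Efna5 and Epha5 gave -0.049, Sema3f and Nrp2 -0.219, and Sema3c and Nrp2 0.437. These values describe clusters of 1 library that differ in depth (cluster medians of 19030.5 to 113219 UMIs) and carry no test.

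Jugular-like neurons, marked by Prdm12 and known to come from the neural crest, were next set against nodose-like neurons, whose origin is placodal. The clusters put 47 neurons in the first class and 1040 in the second, at medians of 72828 and 55638.5 UMIs. The second class includes the 63 cells of cluster 2, led by Cldn5 and Ly6c1, where satellite glia markers summed to 6824 CPM. Of the 59 members with at least 20 UMIs, 10 were over 2-fold higher in jugular-like neurons (16.9%; 7.2% of 14593 genes) and 13 over 2-fold lower (22.03%; 13.5% of genes). The interval left out a ratio of 1 for 8 and 7 of them. The median log2 ratio was -0.21 over these members and -0.02 over all the genes. Without cluster 2, 10 members were higher (7.36% of genes) and 11 lower (12.7% of genes).

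The 10 higher members included 4 Eph receptors and 3 plexins. Plxnc1, a receptor for Sema7a, was 7.31-fold higher in jugular-like neurons (6.36 to 8.39; 84.2 against 11.5 CPM), Plxnd1 4.63-fold (3.87 to 5.53) and Plxna2 3.71-fold (3.36 to 4.10; 138.1 against 37.2 CPM). Slit1 was 10.2-fold higher (7.01 to 14.6), at 14.1 against 1.38 CPM, and Efna1 4.88-fold (3.85 to 6.14). Sema3f was 2.58-fold higher (1.97 to 3.34), Ephb6 2.59-fold (1.85 to 3.56) and Epha7 2.54-fold (1.76 to 3.57). For Epha6 (0.71 to 8.02) and Ephb3 (0.75 to 4.96) the interval held a ratio of 1.

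Of the netrin receptors, Unc5d and Unc5b were among the lower members. Unc5d stood at 0.0347 of its nodose level (0.0159 to 0.066; 2.64 against 75.98 CPM) and Unc5b at 0.0654 (0.0338 to 0.114). Unc5c was at 0.73 (0.636 to 0.835) and Unc5a at 1.05 (0.494 to 1.97), and Dcc had 3 UMIs in all. Epha10, an Eph receptor without an active kinase, was at 0.118 (0.0242 to 0.347), Nrp2 at 0.235 (0.199 to 0.277; 43.7 against 185.7 CPM) and Slit2 at 0.363 (0.234 to 0.538). Slit3, at 0.0584 (0.00147 to 0.328), rested on 1 UMI in jugular-like neurons. Ntn4 had 0 UMIs there against 55 in nodose-like neurons, and a count of 0 allows up to 0.880 CPM, beside 0.855 in nodose-like neurons. When neurons with 1000 CPM or more of other cells' markers were left out, 25 jugular-like neurons remained and 22 members were over 2-fold lower, beside 13.96% of genes.

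The picked neurons were sequenced at a median of 1617516 reads and 11389 genes per cell, with median reads from 1370328 in IntM to 1895910 in Port. Of 69 members, 46 had 10 reads in at least 5% of the cells of these mice and were tested, with 12705 genes in all. The other 23 included Dcc, Ntn1, Ntn4, Ntn5, Robo3, Robo4, Sema3a, Sema7a, Epha1 to Epha4 and Ephb2 to Ephb4, and none of the 23 had 10 reads in more than 4.57% of cells. Efna5 was detected at 10 reads in 99.7% of cells, Sema4d and Sema4f in 99.2%, Sema5a in 95.4%, Robo2 in 93.4% and Sema3c in 92.6%. Each picked cell was matched to the droplet cluster it resembled most, and over the 9 clusters with at least 10 picked cells the 2 assays were compared as a description. Across 45 members the median Spearman's rho was 0.75, with 38 members above 0.5 and 1 (Ephb6, -0.12) below 0, and the same cluster was highest in both assays for 24 members.

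Picked neurons with a Gast code were set against those with an Int code. Gast neurons carried more of the receptor Epha5 and of the secreted ligands Sema3f, Slit1 and Sema3d, and less of the receptors Nrp2, Unc5b and Robo2 and of the ligands Sema5a and Efna5. A value is the mean over the cells of a mouse of log2(CPM + 1), the mouse is the replicate, and p-values come from limma, adjusted over all 12705 genes. A difference on this scale understates the change of low genes. Within a group such as Gast or Int, each code counts equally in the difference, whatever its number of mice. A p-value here measures the spread between mice of the same code, pooled over the codes. Spread between the codes of a group does not enter it. Because each value is a mean over cells, fewer cells with a gene and less RNA in each cell cannot be told apart in it.

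Of the 46 members tested, 22 passed (47.8%), and of all genes 14.8% did. Of these, 15 were higher in Gast (9.04% of all genes) and 7 lower (5.72% of all genes). The median difference was 0.26 over the members and 0.07 over all genes. By family, 7 of 14 semaphorins tested were higher and 2 lower, with 4 of 5 in class 3 higher. Of 6 Eph receptors 3 were higher and 1 lower, of 9 plexins 2 were higher, and of 3 slits 2 were higher. Of the netrin receptors Unc5a was higher and Unc5b lower, and Nrp2, Robo2 and Efna5 were the lower members of their families. With TMM scaling in place of totals, 46.7% of the called genes in the whole table were higher in Gast, against 61.2%.

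Epha5 (ENSMUSG00000029245, chromosome 5, 84054761 to 84417382, GRCm38, minus strand) was the member with the largest difference. The GastG mice were at 5.13, 4.46, 3.38, 4.16 and 4.64 and the GastP mice at 5.37, 6.02 and 4.85. The Int mice ran from 0.70 to 3.40 with a median of 1.67, and Port mice from 2.41 to 4.29 with a median of 3.72. Every Gast mouse lay above the Int median, and only the lowest Gast mouse, at 3.38, fell below the highest Int mouse, at 3.40, an IntL mouse. The difference was 3.05 ± 0.24 (SE, 8 and 13 mice, limma adjusted p = 1.45e-09), and 84.8% of cells in a Gast mouse had 10 reads, against 28.7% in an Int mouse.

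Sema3f (ENSMUSG00000034684, chromosome 9, 107681500 to 107710475, GRCm38, minus strand), which acts through Nrp2 as a repellent, was the 1 member of 46 whose groups did not overlap (2.17%; 0.645% of all genes did not overlap, and 14.8% were called). The Gast mice ran from 1.43 to 4.19 with a median of 2.35, and the Int mice from 0.00 to 1.26 with a median of 0.44. Port mice lay between, from 0.46 to 1.84. The difference was 2.30 ± 0.21 (limma adjusted p = 2.9e-08), and 53.8% of cells in a Gast mouse and 4.57% in an Int mouse had 10 reads.

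The other secreted ligands that were higher showed more overlap. Slit1 stood at 1.36 to 4.19 in Gast mice (median 2.61) and 0.00 to 2.28 in Int mice (median 0.81), a difference of 2.02 ± 0.29 (limma adjusted p = 1.56e-05). Sema3d stood at 3.05 to 5.71 (median 3.86) and 1.20 to 4.09 (median 2.63), a difference of 1.58 ± 0.29 (adjusted p = 0.000266). Both had all 8 Gast mice above the Int median. Slit2 (0.95 ± 0.20, adjusted p = 0.00158) was at 0.04 to 2.18 in Gast mice (median 1.13) and 0.00 to 0.67 in Int mice (median 0.07), and Sema3e (0.89 ± 0.24, adjusted p = 0.0103) at 0.84 to 3.29 (median 1.48) and 0.00 to 2.06 (median 0.60). The call for Sema3e was lost without GastP mouse 10 (adjusted p = 0.078). Sema3c, at 4.20 to 6.89 in Gast mice (median 5.60) and 3.58 to 6.69 in Int mice (median 4.72), differed by 0.84 ± 0.28 (adjusted p = 0.0429, 6 of 8 Gast mice above the Int median), a call that was lost in 12 of 21 fits that left out a Gast or Int mouse.

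Sema3d, Sema3e and Sema3c lie on chromosome 5 between 12383385 and 17730268 (GRCm38), in the stretch that also holds Sema3a, which was too low to be tested. Sema3f and Sema3b are neighbours on chromosome 9, and Sema3b was tested and not called.

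Among receptors that were higher, Plxnd1 rose by 1.65 ± 0.24 (limma adjusted p = 1.34e-05; Gast mice 1.82 to 3.66, Int mice 0.18 to 2.13) and was found at 10 reads in 56.9% of cells in a Gast mouse and 12.2% in an Int mouse. Plxnc1 differed by 1.07 ± 0.26 (adjusted p = 0.00508; Gast mice 2.18 to 4.39, Int mice 1.12 to 3.37), with 5 of 8 Gast mice above the Int median. Unc5a, a repulsive netrin receptor, differed by 1.00 ± 0.17 (adjusted p = 0.000114; Gast mice 0.67 to 2.46, Int mice 0.00 to 0.83). Smaller rises were seen for Epha7 (0.77 ± 0.13), Epha6 (0.45 ± 0.11) and the transmembrane ligands Sema4c (0.77 ± 0.15), Sema6c (0.68 ± 0.18) and Sema4d (0.49 ± 0.15), at adjusted p of 8.15e-05, 0.00704, 0.000738, 0.0111 and 0.025.

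Nrp2 (ENSMUSG00000025969, chromosome 1, 62703285 to 62818695, GRCm38, plus strand) was the member with the largest fall. Gast mice ran from 1.36 to 4.79 (median 3.26) and Int mice from 3.86 to 7.04 (median 5.19), so the groups overlapped. The difference was -2.10 ± 0.31 (limma adjusted p = 1.82e-05), with all 8 Gast mice below the Int median, and the share of cells with 10 reads was 49.1% in a Gast mouse against 90.2% in an Int mouse. In edgeR on reads summed per mouse, which weighs cells by their reads, the difference was -0.41 (adjusted p = 0.483). Over all cells, 51.4% in Gast and 88.2% in Int had 10 reads of Nrp2, at medians of 34.3 and 56.4 CPM among those cells. The 3 highest cells held 25.4% of its summed CPM in Gast and 7.6% in Int.

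Efna5 (ENSMUSG00000048915, chromosome 17, 62604184 to 62881317, GRCm38, minus strand), an ephrin that binds Epha5, fell by 0.81 on the log2 scale (SE 0.14, limma adjusted p = 0.00015). Gast mice were at 6.28 to 6.65 (median 6.48), a narrow range, and Int mice at 6.59 to 8.33 (median 7.23). The receptor Epha5 and its ligand Efna5 thus went in opposite directions between these groups, each in 8 of 8 Gast mice.

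The other lower members were receptors and transmembrane ligands. Unc5b differed by -1.27 ± 0.27 (limma adjusted p = 0.00114; Gast 2.24 to 3.94, Int 3.16 to 5.48). In edgeR it differed by -0.59 (adjusted p = 0.135). Sema5a ran from 5.28 to 7.18 in Gast mice (median 6.33) and from 6.04 to 8.61 in Int mice (median 7.23), a difference of -1.10 ± 0.24 (adjusted p = 0.00177). Robo2 ran from 3.83 to 5.65 and from 4.81 to 6.71, a difference of -0.94 ± 0.25 (0.00846), with 7 of 8 Gast mice below the Int median. The 2 groups overlapped for each of these genes. Sema4b ran from 3.31 to 4.52 and from 3.98 to 5.23 (-0.88 ± 0.19, 0.00145), and Epha10 from 0.71 to 2.67 and from 1.15 to 3.23 (-0.82 ± 0.28, 0.0486). The call for Epha10 was lost in 13 of 21 fits that left out a Gast or Int mouse. The 24 members that were not called lay between -0.44 (Slit3) and 0.69 (Sema6a). In all, 18 of the 22 were also called by edgeR and 17 were called in every fit that left out a mouse.

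**Figure D3:**
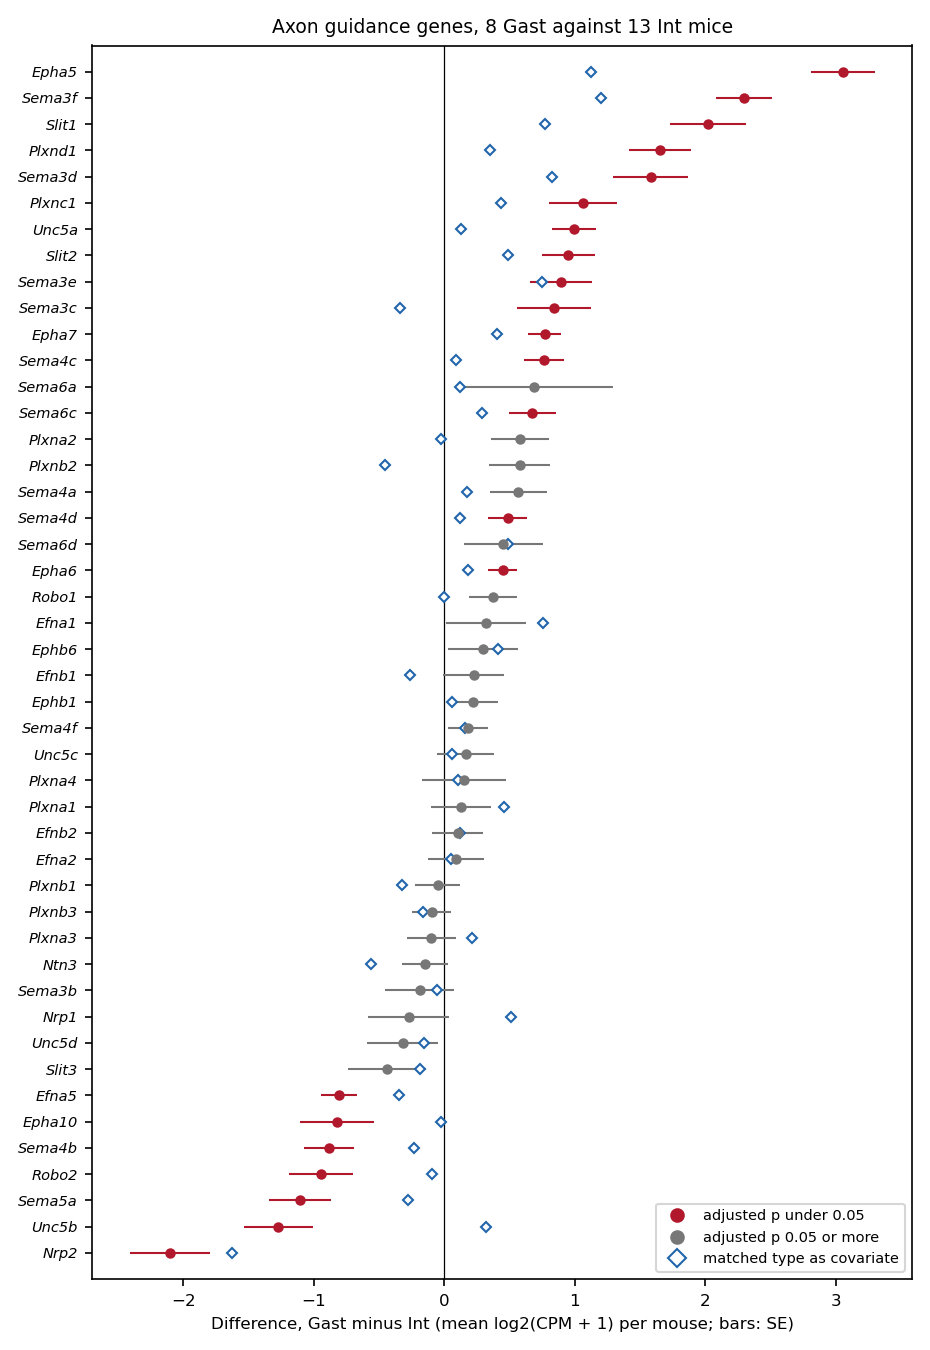
Difference between Gast and Int mice, in log2(CPM + 1), for the members tested, with the standard error of the limma fit (red where the adjusted p was under 0.05, grey otherwise) and, as open diamonds, the value with the matched type as a covariate. Epha5 at 3.05 and Nrp2 at -2.10 lie at the ends, and 15 members are higher and 7 lower past the adjusted threshold.

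The mix of neuron types moved with the target. Cells that resembled most the droplet cluster led by Sst and Ctxn3 made up 46.6% ± 17.1 (SD, n = 8 mice) of a Gast mouse and 2.50% ± 5.52 (n = 13) of an Int mouse. Cells that resembled the cluster led by Gpr65 made up 3.58% ± 8.11 and 41.7% ± 24.6. In the droplet library, which has no target codes, the ratio between these 2 clusters was 11.1 for Epha5 (7.27 to 17.8; 56.9 against 5.11 CPM), 5.66 for Sema3f (2.39 to 16.3), 10.2 for Slit1 (2.53 to 88.98), 5.65 for Plxnd1, 3.43 for Sema3d and 3.32 for Sema3c. It was 0.24 for Robo2 (0.20 to 0.28), 0.32 for Nrp2 (0.27 to 0.37), 0.38 for Sema4b, 0.51 for Efna5 (0.45 to 0.56) and 0.59 for Sema5a. Of the 17 called members with at least 20 UMIs in the pair of clusters, the ratio of all 17 lay on the side of the Gast and Int difference, and for 13 of them the interval left out 1. Unc5b was at 0.88 (0.67 to 1.15). Members that were not called lay on both sides. Sema6a was at 4.53 and Plxna2 at 1.55, with Gast and Int differences of 0.69 and 0.58. Against their differences of 0.45 and 0.15, Sema6d was at 0.42 and Plxna4 at 0.55. Spearman's rho between ratio and difference was 0.78 over the 35 tested members with at least 20 UMIs. A count over all genes is not given. Cells that resembled another cluster, led by Dbh, made up 3.48% ± 3.81 (SD) of a Gast mouse and 24.2% ± 25.9 of an Int mouse.

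A fit with the matched type as a covariate and the mouse as a random effect used 79 means of a mouse and type, from 29 mice and 12 types. There, 0 of 46 members passed by limma after adjustment, and 7 of 12705 genes did (0.0551%). Of the 22 members, 20 kept their sign, 6 had an unadjusted p under 0.05, and all 22 had a smaller difference, with the median size going from 0.95 to 0.34. Nrp2 differed by -1.62 (unadjusted limma p = 0.00352, adjusted 0.588) and Sema3f by 1.20 (adjusted 0.147). Sema3c, at -0.34, and Unc5b, at 0.32, changed sign. Of the cells matched to the cluster led by Sst, 47 were Gast and 5 Int, and of those matched to the Gpr65 cluster, 4 and 64. Few cells could thus be compared within a type, and this fit cannot tell type and target apart. Satellite glia markers did not move with this comparison (0 of 7 called). Without cells of 1000 CPM or more of them 13 members were higher and 6 lower (share of all genes not given). Of 10 genes of the response to axon injury 2 were higher in Gast, and 21 of the 22 members were still called without the 4 mice in which those genes were highest.

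Markers of other cell classes also moved with this comparison. Of 3 jugular-like markers tested 2 were higher in Gast, at a summed level of 185.8 to 449.8 CPM in Gast mice and 135.3 to 357.4 in Int mice, and Prdm12 had 10 reads in under 1% of cells. Of 4 nodose-like markers tested 2 were lower, at 3122 to 3684 CPM against 4110 to 10092. Of the picked cells, 2 (0.445%) resembled most the jugular-like cluster 10, both with the code GastG. The cluster led by Sst, number 9, was classed as nodose-like. Plxnd1, Plxnc1, Slit1, Sema3f and Epha7, higher in Gast, were also higher in the jugular-like neurons of the droplet library, and Nrp2, Unc5b and Epha10, lower in Gast, were also lower there. Slit2, Sema3e and Sema3c went the other way, lower in jugular-like neurons and higher in Gast. The ratio of jugular-like to nodose-like neurons was 0.579 for Sema3e (0.401 to 0.810) and 0.713 for Sema3c (0.618 to 0.819). For Epha5 (0.900, 0.806 to 1.002) and Sema3d (0.790, 0.611 to 1.007), also higher in Gast, the interval held a ratio of 1. Sema5a (0.598, 0.532 to 0.670) and Efna5 (0.761, 0.670 to 0.861), lower in Gast, were lower there by less than 2-fold. The 1 endothelial marker tested was higher in Gast by 0.78, with 6 markers summing to 38.9 to 76.4 CPM against 23.9 to 48.4, and Emcn and Cdh5 had 10 reads in under 1% of cells. The 1 red blood cell marker tested was higher by 0.68, with 3 markers summing to only 0.74 to 3.32 CPM against 0.19 to 1.03. Hbb-bs and Alas2 had 10 reads in under 1% of cells. Of 2 sympathetic-like markers tested 1 was higher and 1 lower. The part of these markers in the differences between members was not tested.

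Other genes of the pathway, from a list of co-receptors, adaptors and regulators of the cytoskeleton, moved in both directions: 12 of 82 were higher in Gast and 7 lower (23.2%; 14.8% of all genes). Flrt1, an adhesion gene of the FLRT family, was higher by 1.72 ± 0.39 (limma adjusted p = 0.00283), the exchange factor Vav2 by 1.10, the netrin G gene Ntng1 by 1.08 and the actin-binding Ablim3 by 0.95. Tmeff1 differed by -1.05 and Ntng2 by -0.92. With the matched type as a covariate 0 of the 82 passed.

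Within Gast, GastG was set against GastP (5 and 3 mice). By limma 0 of 46 members passed and 0.0% of all genes, and edgeR also called 0 members. At an unadjusted p under 0.05, 7 members stood out (4.31% of all genes did), all lower in GastG. Sema3f had the largest difference at -1.32 ± 0.34 (limma adjusted p = 0.578), with GastG mice from 1.43 to 2.90 (median 2.14) and GastP mice at 2.44, 3.65 and 4.19. Slit1 differed by -1.25, Nrp1 by -1.07, Epha5 by -1.06, Plxnc1 by -0.95, Sema3e by -0.85 and Sema6c by -0.84. Sema6c was the 1 member of 46 without overlap (2.17%; 2.85% of all genes), from 1.10 to 2.24 in GastG and 2.60 to 2.76 in GastP. Without the 4 mice with high injury transcripts, of which GastP mouse 44 is in this comparison, Sema3f differed by -1.81 (limma adjusted p = 0.0088) and was the 1 member to pass. That fit held only mice 9 and 10 of GastP, and the share of all genes that passed in it is not given. With the matched type as a covariate 0 members passed (0.00787% of all genes).

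Across the 4 Int codes, an F test in limma called 10 of 46 members (21.7%; 9.85% of all genes), among them both neuropilins. Nrp1 (ENSMUSG00000025810, chromosome 8, 128358604 to 128503363, GRCm38, plus strand) had the widest range between code means, 3.23 (adjusted p = 0.000629). It stood at 3.75, 2.40, 3.89 and 2.34 in the IntP mice, at 6.25, 6.94 and 4.95 in IntM, at 6.90, 5.30 and 6.77 in IntD, and at 4.31, 5.22 and 5.20 in IntL. All IntP mice were below all others.

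Sema3c, a ligand of Nrp1 and Nrp2, was ordered the other way (range 2.40, limma adjusted p = 0.00579). The IntP mice were at 6.65, 5.33, 6.24 and 6.69, the IntM mice at 4.33, 3.95 and 4.72, the IntD mice at 3.58, 4.15 and 3.74, and the IntL mice at 4.82, 4.60 and 5.13. The IntP mice were above all others. Slit3 (range 2.64, adjusted p = 0.00786) was highest in IntP as well, at 5.19, 3.96, 4.52 and 4.40, against 2.93 to 3.98 in IntM, 2.76 to 3.79 in IntD and 1.64 to 2.10 in IntL. Neighbouring codes overlapped for Slit3, apart from IntL, which lay below all others. The mix of types also differed. Cluster 17 (Dbh) was matched by 25 IntP, 7 IntM, 4 IntD and 3 IntL cells, and cluster 12 (Gpr65) by 14, 17, 21 and 12. In picked cells of cluster 17, Nrp1, Sema3c and Slit3 were at 3.76, 5.71 and 4.07, against 5.57, 4.27 and 3.09 in cluster 12.

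The other 7 were Plxna4 (range 1.98, limma adjusted p = 0.0473), Epha5 (1.85, 0.0143), Nrp2 (1.81, 0.0346), Plxnc1 (1.75, 0.039), Sema4a (1.73, 0.00908), Plxnd1 (1.40, 0.0432) and Efna5 (1.03, 0.0389). With the matched type as a covariate, Sema3c (adjusted p = 0.00702) and Nrp1 (0.0231) passed, 2 of 46, against 0.842% of all genes. Without picked cells of 1000 CPM or more of satellite glia markers 4 members passed (share of all genes not given). Of the pathway genes 14 of 82 passed, with Tmeff1 (range 2.41) and the netrin receptor Neo1 (2.00) the widest of those.

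**Figure D4:**
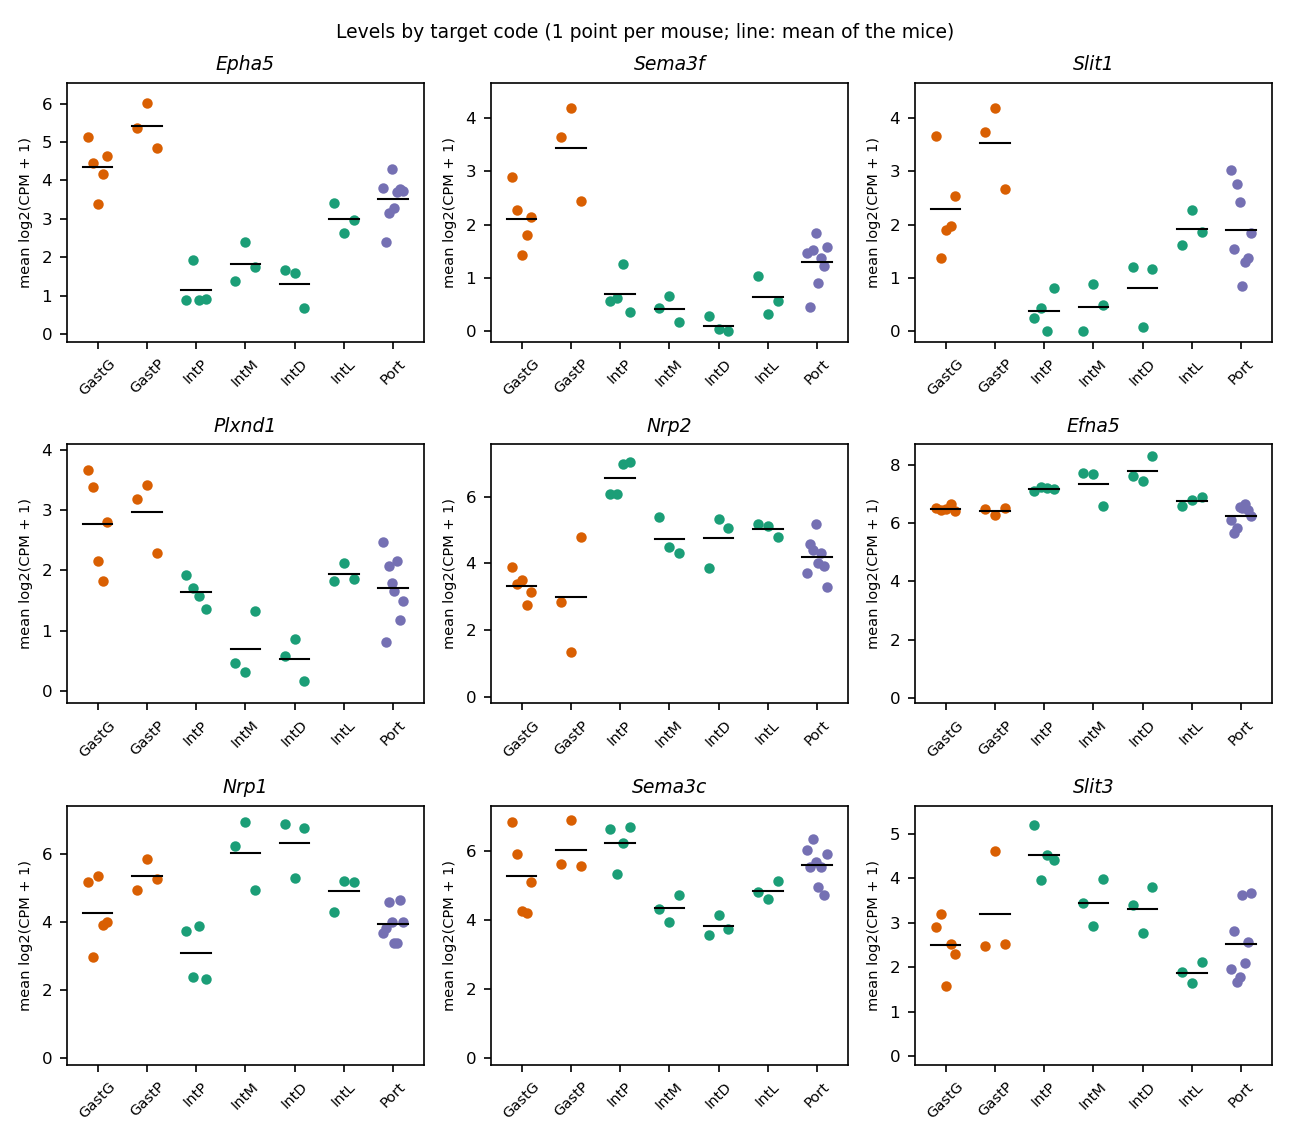
Mean log2(CPM + 1) of 9 members in each mouse, by target code, with 1 point per mouse and a line at the mean of the mice. Epha5 and Sema3f are high in GastG and GastP, Nrp1 is low in IntP (2.34 to 3.89), and Slit3 is low in IntL (1.64 to 2.10).

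IntL was then set against the other Int codes (3 and 10 mice). By limma 5 of 46 members passed (10.9%; 5.52% of all genes), 3 higher in IntL (3.05% of all genes) and 2 lower (2.47%), and 8 members did not overlap (17.4%; 6.05% of all genes). With edgeR 66.04% of the called genes in the whole table were higher in IntL, against 55.2%. Epha5 was at 2.64 to 3.40 in IntL (median 2.98) and 0.70 to 2.40 elsewhere (median 1.48), a difference of 1.57 ± 0.35 (adjusted p = 0.00764). Sema4a was at 2.22 to 2.82 and 0.39 to 1.69 (1.53 ± 0.32, adjusted p = 0.00425), and the ephrin Efnb1 at 2.60 to 3.19 and 1.12 to 2.27 (1.20 ± 0.34, adjusted p = 0.0339). These 3 ligands and receptors lay above every other Int mouse. Slit3 differed by -1.89 ± 0.43 (adjusted p = 0.0094) without overlap, and Efna5, at 6.59 to 6.92 against 6.61 to 8.33, by -0.68 ± 0.20 (0.0434).

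Satellite glia markers moved with this comparison. Their summed level was 115.2 to 728 CPM in IntL mice and 13.4 to 132.2 in the other Int mice, 1 of 7 markers was called higher, and cells with 1000 CPM or more of them made up 52.8% ± 20.97 (SD, n = 3) of an IntL mouse and 25.1% ± 14.5 (n = 10) of the others. In the unfiltered droplet data Sema4a was at 22.8 CPM in satellite glia and 2.3 in neurons, and Efnb1 at 83.8 and 13.6, while Epha5 was at 24.2 and 115.2. Without such cells 0 members were higher by limma and 1 was lower, Slit3, at -1.87 (adjusted p = 0.0396), with the share of all genes not given. That fit kept 20 of 44 IntL cells, with 4 of 16 in mouse 39, and took mice of at least 2 cells. Fewer cells per mouse and less satellite glia RNA cannot be told apart in it. Epha5 then differed by 1.28 (0.126), Sema4a by 0.87 (0.288), Efnb1 by 0.95 (0.252) and Efna5 by -0.43 (0.437). Over fits that left out 1 Int mouse, the call for Sema4a held in each (highest adjusted p 0.0424). Leaving out IntL mouse 33 ended the calls for Epha5 (adjusted p = 0.123) and Slit3 (0.0823), and leaving out IntL mouse 34 also ended the call for Slit3 (0.0616). The calls for Efnb1 and Efna5 were also lost without single mice (4 of 13 fits lost for Efnb1, highest adjusted p 0.159, and 10 of 13 fits lost for Efna5). With the matched type as a covariate 0 members passed (0.0157% of all genes).

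Port neurons were set against Gast and Int together (8 and 21 mice), with the Gast mean and the Int mean weighted equally. The comparison shares its Gast and Int mice with those above. By limma 8 of 46 members passed (17.4%; 5.0% of all genes), 3 higher in Port (2.05% of all genes) and 5 lower (2.95%). No member was free of overlap (0 of 12705 genes were). With edgeR 76.8% of the called genes in the whole table were higher in Port, against 40.9%. Sema6a, a transmembrane semaphorin that binds class A plexins (ENSMUSG00000019647), was the highest by difference at 2.11 ± 0.56 (adjusted p = 0.0328, 7 of 8 Port mice above the median of the others). It ran from 0.62 to 7.13 in Port mice (median 2.44) and from 0.11 to 3.82 in the others (median 1.20).

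The 4 highest mice were the same for Sema6a and for transcripts of axon injury. Port mice 22, 27 and 21 were at 7.13, 6.54 and 4.44 for Sema6a and GastP mouse 44 was at 3.82, and no other Port mouse was above 2.58. The mean of 10 injury genes such as Atf3 and Sprr1a was 7.75, 7.07, 5.76 and 5.19 in those 4 mice, and 2.47 to 4.58 in the other 25. Of the 10 genes 5 were called higher in Port. Without the 4 mice Sema6a differed by 0.84 (limma adjusted p = 0.0847) and 0 of 46 members passed (share of all genes not given). Without Port mouse 22 alone the adjusted p was 0.107.

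**Figure D5:**
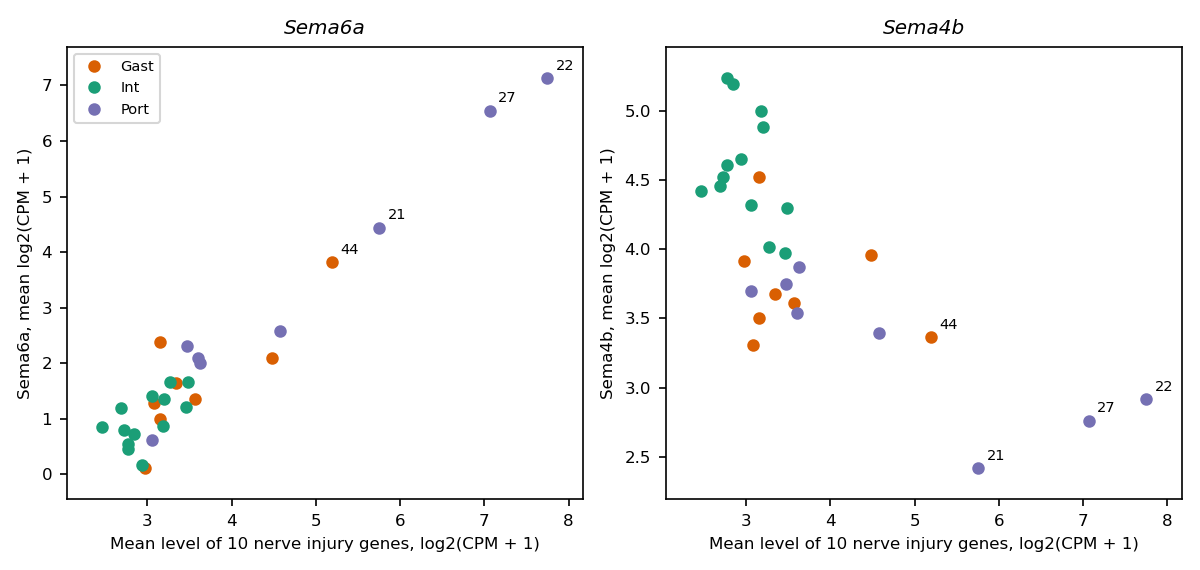
Level of Sema6a and of Sema4b against the mean level of 10 injury genes, in log2(CPM + 1), with 1 point per mouse and the target group by colour. Port mice 21, 22 and 27 and GastP mouse 44 stand apart at 5.19 or more on the injury axis, and their Sema6a levels are 3.82 to 7.13.

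The other members called in Port were smaller in size. The Eph receptor Ephb1 was higher by 0.80 ± 0.18 (limma adjusted p = 0.0177; 0.09 to 2.39 against 0.00 to 0.65) and Sema4a by 0.72 ± 0.20 (0.039; 1.42 to 3.23 against 0.39 to 2.82). The other 5 were lower in Port, with overlap in each. Sema4b differed by -0.85 ± 0.17 (0.0114; 2.42 to 3.87 against 3.31 to 5.23), Efna5 by -0.61 ± 0.13 (0.0128; 5.68 to 6.65 against 6.28 to 8.33) and Unc5b by -0.99 ± 0.24 (0.0264; 1.51 to 3.98 against 2.24 to 5.48). Sema5a differed by -0.85 ± 0.22 (0.0319; 4.64 to 6.49 against 5.28 to 8.61) and Nrp1 by -1.01 ± 0.29 (0.0403; 3.40 to 4.66 against 2.34 to 6.94). Without the 4 mice these were 0.46 (adjusted p = 0.0803), 0.88 (0.0709), -0.53 (0.138), -0.37 (0.194), -0.78 (0.166), -0.63 (0.223) and -1.07 (0.154), in the same order. The calls for Sema4b and Efna5 held in each fit that left out 1 mouse. The others were lost in 1 (Ephb1) to 16 (Nrp1) of 29 such fits, at the highest adjusted p without Port mouse 22 or, for Unc5b, 27. With the matched type as a covariate, Sema4b (-0.64, adjusted p = 0.0358) and Sema6a (1.75, 0.0437) passed, 2 of 46 against 2.32% of all genes. Of the pathway genes 3 of 82 were lower in Port (3.66%), Fes (-0.82), Limk1 (-0.80) and Arhgap39 (-0.58).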

How the data were processed

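The deposited droplet matrices hold UMI counts per gene and barcode. Cell Ranger 2.0.1 and build mm10 are listed in the submitters' processing notes (for picked cells, no aligner is named there or in the labels). The table of picked cells deposited by the authors holds log2 values of reads, as read from the values, with a floor at -5.64 that stands for 0.02 reads and was read as 0. Of values above it, 94.1% were whole reads within 1 part in 1000. Gene and barcode names (unit other) come from the deposited files. There, 1 column of per-sample values matched no sample and was not used.

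Droplet cells (1000 UMIs, 500 genes) were clustered in scanpy 1.11.5 and leidenalg 0.10.2 (2000 variable genes, 30 components, 15 neighbours, resolution 1, and 1.5 for neurons). Classes were named from fixed markers. Scrublet marked 3 neurons, which were kept. The filtered matrix held 68051490 UMIs.

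Of 452 picked cells 449 passed 2000 genes and 396 carried a target code. Mice of at least 4 cells (29 mice) entered 1 limma fit (3.58.1, R 4.3.3) on mean log2(CPM + 1) with an intensity trend, with Benjamini-Hochberg adjustment at 0.05. Genes needed 10 reads in 5% of cells. edgeR 4.0.16 (quasi-likelihood) on summed reads was an alternative. In data simulated for Gast against Int (12705 genes, 200 changed) the fit found 93.5% of changes of log2 1 and 99.5% of log2 2, with 7 and 12 false calls. The simulated mouse values were normal, with the same shift in every Gast mouse. They had no floor and no mix of neuron types, so recovery in the real data may be lower. Ratios of UMI counts carry exact intervals at 95%, and Spearman correlations were computed in scipy 1.17.1.

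Named with values were the members called, by size (up to 10 in each direction for Gast against Int, 8 for Port and 5 elsewhere), and in the droplet library the 2 most abundant and the 2 most unequal by cluster in a family, and up to 8 in each direction for jugular-like neurons; further members were named after their values were seen. The members, the pathway list and the lists of markers and injury genes were chosen with earlier results of these data known, and the 4 mice with high injury transcripts were picked on those transcripts. Positions are from GENCODE vM21.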

Additional observations from a re-analysis of the deposited data

Results flagged for a closer look

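Of 72 groups of at least 4 mice with a code, taken over the named members, 3 held a mouse far from the others, by Dixon's test at 95%; chance gives about 5% of groups. Values are mean log2(CPM + 1). Epha5 in IntP mouse 12 was at 1.93, and the other 3 IntP mice were at 0.88 to 0.91. Sema3d in Port mouse 22 was at 2.01, and the other 7 Port mice at 3.05 to 3.76. Sema5a in the same mouse was at 4.64, and the others at 5.76 to 6.49. Port mouse 22 also had the highest mean of injury genes, at 7.75, and the part of these in its low values was not tested.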

How the results depend on the processing

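Values that changed are grouped here by setting. Unless said otherwise, a cause was not tested. Shares of all genes called are given above for the matched type, and not for most other settings. A change in a count of members may therefore be shared by genes at large. For members higher in Gast than in Int (15) the count was 9 with a filter of 10 reads in 20% of cells, which tests fewer genes, and 0 with the matched type as covariate. For those lower (7) it was 4 with edgeR, 4 with mice numbered up to 39 and 0 with the matched type. Pathway genes (19) went to 0 with the matched type. For Port, members higher (3) were 1 at a pseudocount of 0.1, 1 with no filter (18694 genes tested), 0 without the 4 mice of high injury transcripts, 5 with mice up to 39 and 1 with the matched type. Members lower in Port (5) were 2, 0, 9 and 1 under the last 4 of these. The Port mice in the fit with mice up to 39 were 21, 22 and 27, all among the 4 mice of high injury transcripts. Mouse number and injury transcripts thus cannot be told apart in that setting. Members lower in GastG than in GastP (0) were 1 without those 4 mice. Members higher in IntL (3) were 11 with edgeR, 8 without those 4 mice, 7 with mice up to 39, and 0 both with the matched type and without cells of high satellite glia markers. Members lower in IntL (2) were 1 with edgeR, 1 with no filter, 0 with the matched type and 1 without those glia-rich cells. Members differing across Int codes (10) were 5 with no filter, 18 without the 4 mice, 2 with the matched type and 4 without the glia-rich cells. Members lower in jugular-like neurons (13) were 22 without neurons rich in other cells' markers. The settings without the 4 mice, without glia-rich cells, without marker-rich neurons and without neurons of cluster 2 were chosen after seeing the data or earlier results of them. Leaving out 1 mouse gave 13 to 16 members higher and 6 to 7 lower in Gast, 0 to 3 higher and 2 to 5 lower in Port, 0 to 1 lower and 0 higher in GastG, 1 to 4 higher and 0 to 2 lower in IntL, 4 to 10 across Int codes, and 12 to 20 pathway genes. Sema3c (-0.34) and Unc5b (0.32) changed sign with the matched type between Gast and Int. Of 30 calls for named members, 29 held with TMM scaling, 25 with edgeR, 25 at a pseudocount of 0.1, 21 with no filter, 25 with mice up to 39 and 2 with the matched type. No paired analysis was possible because the labels give no replicate numbers that groups share. The main tests across targets rest on 3 to 8 mice with a code, and fits that leave out mice rest on fewer.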

Other observations

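Mice with the code na and a Port mouse of 2 cells entered no comparison, and their values are mean log2(CPM + 1). Among na mice, Epha5 was at 2.52 in mouse 31 (15 cells), 0.94 in mouse 32 (8 cells), 4.70 in mouse 36 (15 cells) and 3.38 in mouse 37 (15 cells). Sema3f was at 0.65, 0.00, 1.74 and 1.74 in the same order, and Nrp2 at 5.48, 4.76, 3.30 and 2.86. Mice 36 and 37 thus had more Epha5 and Sema3f and less Nrp2 than mice 31 and 32. Efna5 was at 6.90, 7.19, 6.54 and 7.16, and Nrp1 at 4.80, 4.20, 2.83 and 4.12. Port mouse 28, with 2 cells, had Epha5 at 5.31, Sema6a at 5.45, Nrp2 at 1.89 and Efna5 at 6.44.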
